A study of Ovis aries with 15 samples.

Results

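The endothelial identity genes are a set of 10 genes that mark the lining cells of blood vessels, and 8 of them (PECAM1, CDH5, VWF, ENG, EMCN, ESAM, CLEC14A and ERG) were found by their symbol among the 24691 features of the deposited table. No row carried the symbol TEK or TIE1. The row LOC443265 shares its gene identifier with TIE1 in RefSeq (assembly ARS-UI_Ramb_v3.0), so it is described apart and not counted among the 8. The genes were measured by RNA-seq in needle biopsies of mammary parenchyma from 2-year-old Romney ewes in their first pregnancy, in 9 libraries of late pregnancy (day 135 of gestation) and 6 of early lactation (day 15 after birth). In each state the libraries fall into 3 groups named by the pasture allowance of the ewes' own dams. In early gestation, until day 50, the HM dams had ad libitum pasture, the MM dams a maintenance allowance and the LM dams less than maintenance. All these dams received maintenance afterwards, until day 140, and the ewes themselves were fed alike. Each group holds 3 pools of late pregnancy and 2 of lactation. Each library is 1 pool of RNA, made from 3 ewes in late pregnancy and, by the labels, 2 ewes in lactation (the methods of the study give 3 for both). Ewes were biopsied in both states, but which ewes went into which pool is not given in the sources used here, so p-values measure the spread between pools.

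Endothelial cells form the inner wall of every vessel and hold together through adhesion molecules at their junctions. They carry a coat of glycoproteins on the side facing the blood, store clotting factors, and read growth factors through receptors such as the angiopoietin receptors TEK and TIE1 and the endoglin complex. Transcription factors of the ETS family, ERG among them, keep this gene programme on. In the mammary gland capillaries surround the alveoli, and the milk made there draws its water, glucose, amino acids and fat from their blood.

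Each late pregnancy library held 6471237 to 16898986 reads on exons, and each lactation library 9014506 to 24001031. Milk protein genes took 13.7 to 23.4% of them before birth and 71.3 to 75.8% after it. Levels are therefore given as counts per 1e6 (CPM) of a library size scaled by the trimmed mean of M values (TMM), which sets aside genes with extreme ratios. The median log2 change over the 13345 tested genes was -0.03 on this scale, and -1.93 with unscaled library sizes. One library stood apart: in the library labelled HM lactation 1, intron reads made up 32.2% of the reads on tested genes other than milk protein genes, against 15.3 to 17.5% in the other lactation libraries and 14.9 to 16.9% in late pregnancy. It was therefore left out of the comparison of the states in a further fit, a choice made after its values were seen, and what that changed is given with the genes and lists concerned.

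As a set, the endothelial identity genes were lower in lactation. Of the 8 genes, all of which passed the filter on low counts, 6 were called lower in lactation at an adjusted p under 0.05 by the edgeR quasi-likelihood test, and 0 were called higher. Over all tested genes 35.2% were called lower and 33.1% higher. CLEC14A fell the most, by 1.44 on the log2 scale, then EMCN, PECAM1, ERG, CDH5 and VWF. ENG and ESAM were not called. The median log2 change of the 8 genes was -0.59. Levels in a bulk biopsy are relative to the RNA of all its cells. Fewer endothelial cells, less RNA of these genes per cell and more RNA from other cells cannot be told apart. Leaving out HM lactation 1 gave 6 genes called lower and 0 higher as well, and the log2 changes were then -0.69 for PECAM1, -0.61 for CDH5, -0.10 for ESAM, -0.99 for EMCN, -1.41 for CLEC14A, 0.12 for ENG, -0.47 for VWF and -0.53 for ERG.

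**Figure D1:**
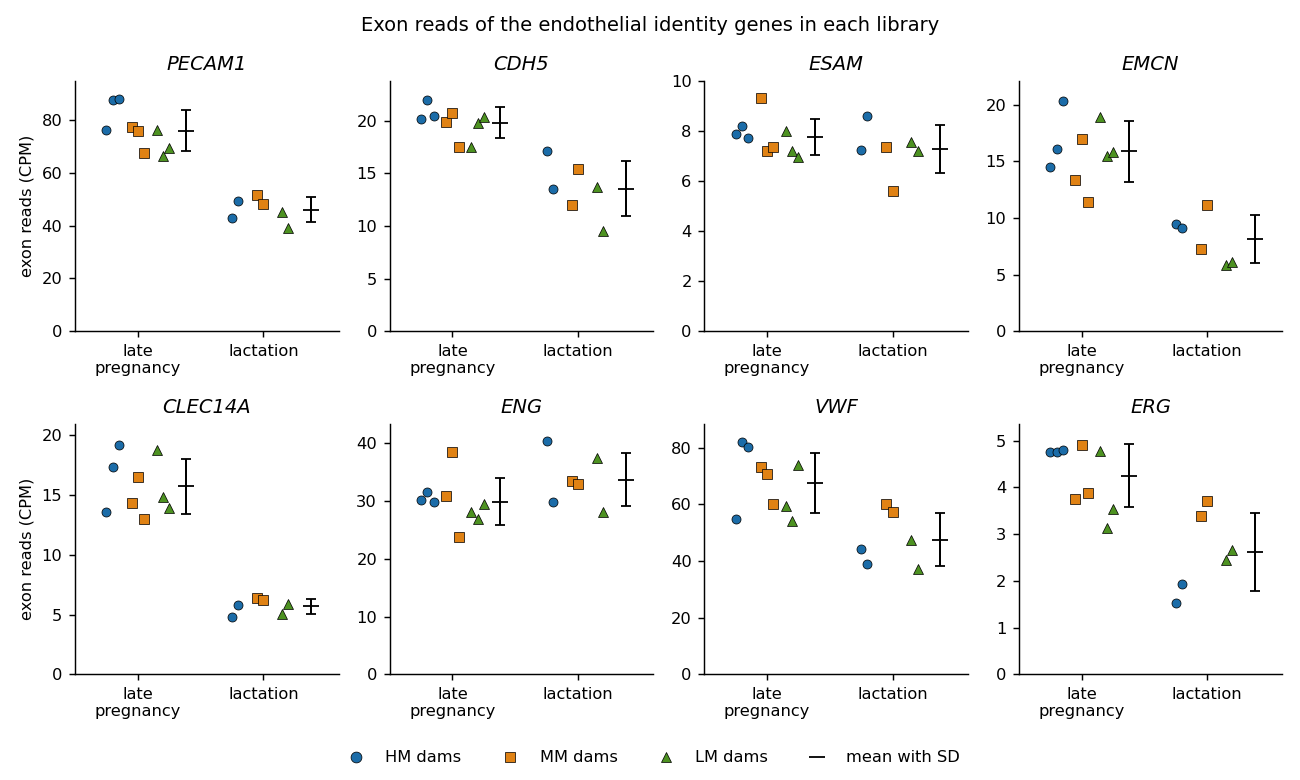
Exon reads in CPM (vertical axes, from 0) of the 8 endothelial identity genes in the 9 late pregnancy and 6 lactation libraries. Each point is 1 library, its shape and colour give the dam nutrition group, and the bars show the mean with SD. The lactation points of PECAM1, CDH5, EMCN and CLEC14A lie below every late pregnancy point, while those of ENG and ESAM lie among them.

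PECAM1 (chr11:47942701-48008958, 16 exons; coordinates as in the deposited table, sheep assembly Oar_v3.1 by the labels and genome version 3.2 by the methods) encodes an adhesion molecule concentrated at endothelial junctions and also present on platelets and leukocytes. Its level ran from 66.4 to 87.9 CPM in late pregnancy, with a median of 76.3. In lactation it ran from 39.0 to 51.7 CPM, with a median of 46.9. All 6 lactation libraries lay below the lowest late pregnancy library. The log2 change was -0.71 (SE 0.0755, adjusted p = 6.44e-08), a fall from 76.1 ± 7.80 (SD, n = 9) to 46.2 ± 4.66 CPM (SD, n = 6).

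CDH5 (chr14:33479816-33516861, 13 exons) encodes VE-cadherin, the cadherin of the endothelial adherens junction. Late pregnancy libraries held 17.5 to 22.0 CPM of it (median 20.1) and lactation libraries 9.51 to 17.1 CPM (median 13.6). The states did not overlap, though the highest lactation library, HM lactation 1, came within 1 CPM of the lowest of late pregnancy. The log2 change was -0.55 (SE 0.0937, adjusted p = 3.05e-05), and -0.61 without HM lactation 1.

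ESAM (chr21:27454082-27462117, 7 exons) encodes an immunoglobulin-type adhesion molecule of endothelial tight junctions. It measured 6.99 to 9.36 CPM (median 7.75) in the late pregnancy libraries, and the lactation libraries gave 5.63 to 8.61 CPM (median 7.32). The states overlapped, and 1 of 6 lactation libraries lay below the lowest of late pregnancy. The log2 change of -0.10 (SE 0.0982, adjusted p = 0.356) did not pass the test. Among the 3 junction genes, then, PECAM1 and CDH5 were called lower and ESAM was not.

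EMCN (chr6:24292014-24417845, 11 exons) encodes endomucin, a heavily glycosylated protein of the luminal coat, known mainly from capillaries and veins. In late pregnancy it ran from 11.4 to 20.3 CPM (median 15.8), and lactation libraries gave 5.83 to 11.2 CPM (median 8.18). No lactation library reached the lowest late pregnancy library. EMCN fell by 48.6%, a log2 change of -0.96 (SE 0.147, adjusted p = 9.02e-06).

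CLEC14A (chr18:47277026-47278735, 2 exons) encodes a C-type lectin receptor of the endothelial surface with a part in vessel sprouting. Late pregnancy libraries measured 13.0 to 19.2 CPM (median 14.8), from 190 to 518 reads. Lactation libraries measured 4.83 to 6.35 CPM (median 5.85), from 22 to 73 reads. The ranges were far apart, and the spread between lactation libraries was narrow (SD 0.622 CPM around a mean of 5.68, n = 6). CLEC14A fell by 63.3% (log2 change -1.44, SE 0.115, adjusted p = 9.24e-10). It was the only one of the 8 genes called with a fall of more than 2-fold, against 13.0% of all tested genes. EMCN lay close to this limit and passed it in 8 alternative fits, among them those without MM late pregnancy 3 (-1.01) or MM lactation 2 (-1.09), with no filter on low counts (-1.01) and with upper quartile scaling (-1.11).

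ENG (chr3:8279809-8310212, 15 exons) encodes endoglin, a co-receptor for ligands of the TGF-β and BMP families. Late pregnancy libraries ran from 23.7 to 38.5 CPM (median 29.8) and lactation libraries from 28.1 to 40.4 CPM (median 33.2). The states overlapped almost wholly, with 5 of 6 lactation libraries above the late pregnancy median. The log2 change was 0.17 (SE 0.0924, adjusted p = 0.106), which missed the threshold. Its sign depended on the scaling: it was -0.04 (adjusted p = 0.722) with library sizes that leave out the milk protein genes and -1.73 with unscaled library sizes, where 95.2% of all tested genes were called lower. Relative to the median of all tested genes it was 0.20 to 0.21 higher in these fits and in the reported one. Leaving out MM late pregnancy 2, the highest of the late pregnancy libraries for ENG, gave a log2 change of 0.22 that was called higher (adjusted p = 0.0184).

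VWF (chr3:208167157-208288548, 53 exons) encodes von Willebrand factor, the clotting protein that endothelial cells store in Weibel-Palade bodies and that megakaryocytes make as well. It measured 54.1 to 81.8 CPM in the pools of late pregnancy (median 70.7) and 37.3 to 60.3 CPM in those of lactation (median 45.8). The states overlapped through the MM lactation libraries, at 60.3 and 57.1 CPM, and 4 of 6 lactation libraries lay below the lowest late pregnancy library. VWF fell by 28.7% (log2 change -0.49, SE 0.117, adjusted p = 0.00109).

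Platelets also carry VWF and PECAM1, so 8 platelet genes were measured beside them. Of these, GP9 and PPBP had 0 reads in every library, PF4 peaked at 0.38 CPM and GP6 at 0.174 CPM. The list summed to 5.58 to 10.3 CPM in late pregnancy and 5.48 to 7.66 CPM in lactation, most of it ITGA2B (at most 9.23 CPM before birth and 7.10 CPM after it). The 2 platelet genes that could be tested, ITGA2B and ITGB3, were not called, and the part of platelets in the levels of VWF and PECAM1 was not tested.

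ERG (chr1:268708780-268840653, 13 exons) was the least abundant of the set and the only transcription factor in it. Late pregnancy libraries held 3.14 to 4.90 CPM (median 4.75) and lactation libraries 1.54 to 3.72 CPM (median 2.55). The lactation values rest on 7 to 39 exon reads each, and 4 of 6 lay below the lowest late pregnancy library. The log2 change was -0.62 (SE 0.174, adjusted p = 0.00371), and -0.53 without HM lactation 1 (adjusted p = 0.0104). This fall belongs to exon reads: with all reads on the gene, introns included, the log2 change was 0.14 (adjusted p = 0.232).

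The row LOC443265, which carries the gene identifier of the receptor TIE1, measured 8.16 to 11.2 CPM (median 9.03) in late pregnancy libraries, with lactation libraries at 6.28 to 9.04 CPM (median 8.01). The states overlapped, and it was called lower with a log2 change of -0.26 (SE 0.103, adjusted p = 0.0292).

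The states did not overlap for 4 of the 8 genes (PECAM1, CDH5, EMCN and CLEC14A), all lower in lactation, against 20.0% of all tested genes that were lower in this way. None of the 8 was higher without overlap, against 20.2% of all tested genes. Without HM lactation 1 the same 4 genes did not overlap. Added up, the 8 genes came to 204.3 to 270.4 CPM in late pregnancy and 135.8 to 181.7 CPM in lactation, without overlap. As a plain share of all reads used they took 0.0346 to 0.0456% in late pregnancy libraries, against 0.00597 to 0.00871% in lactation libraries. The total behind this share includes the milk protein transcripts.

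Levels of different genes were compared as CPM per kilobase of exon. In late pregnancy the order ran from PECAM1 (22.1 ± 2.27) through EMCN (13.2 ± 2.25), ENG (10.1 ± 1.36), CLEC14A (9.38 ± 1.37), VWF (8.29 ± 1.32), CDH5 (6.39 ± 0.47) and ESAM (6.04 ± 0.559) to ERG (1.99 ± 0.315; SD, n = 9). Only PECAM1 and EMCN, and ESAM and ERG, were neighbours without overlap. In lactation it ran from PECAM1 (13.4 ± 1.36) through ENG (11.4 ± 1.55), EMCN (6.78 ± 1.75), VWF (5.84 ± 1.16), ESAM (5.65 ± 0.743), CDH5 (4.37 ± 0.854) and CLEC14A (3.39 ± 0.371) to ERG (1.22 ± 0.391; SD, n = 6). ENG and EMCN, and CLEC14A and ERG, were the neighbours without overlap there. CLEC14A thus moved from rank 4 to rank 7 and ENG from rank 3 to rank 2, although PECAM1 stood above ENG in only 5 of 6 lactation libraries. The order of means was looser further down: EMCN stood above VWF in 4 of 6 lactation libraries, and VWF above ESAM in only 2 of 6.

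The balance within the set was read from the ratio of each gene to PECAM1 in the same library, which does not depend on how libraries are scaled. The log2 ratio of CLEC14A to PECAM1 was -2.49 to -2.03 in late pregnancy and -3.17 to -2.73 in lactation, without overlap, so CLEC14A fell further than PECAM1. Among all tested genes 3.39% had a lower ratio to PECAM1 without overlap. The log2 ratio of ENG to PECAM1 was -1.56 to -0.98 in late pregnancy and -0.73 to -0.09 in lactation, again without overlap, but 51.7% of all tested genes had such a higher ratio. For both shares of all tested genes a small constant was added to the CPM of each gene, but not to that of PECAM1. Unlike the ratios of the set, these shares therefore depend on the scaling. For CDH5, VWF, EMCN, ESAM and ERG the ratios of the states overlapped. Without HM lactation 1 the ratios of CLEC14A and ENG still did not overlap, and those of the other 5 did. Of the summed CPM per kilobase of the 8 genes, ENG made up 11.4 to 15.8% in late pregnancy and 19.3 to 25.2% in lactation, and CLEC14A 10.95 to 13.96% and 5.32 to 8.01%.

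**Figure D2:**
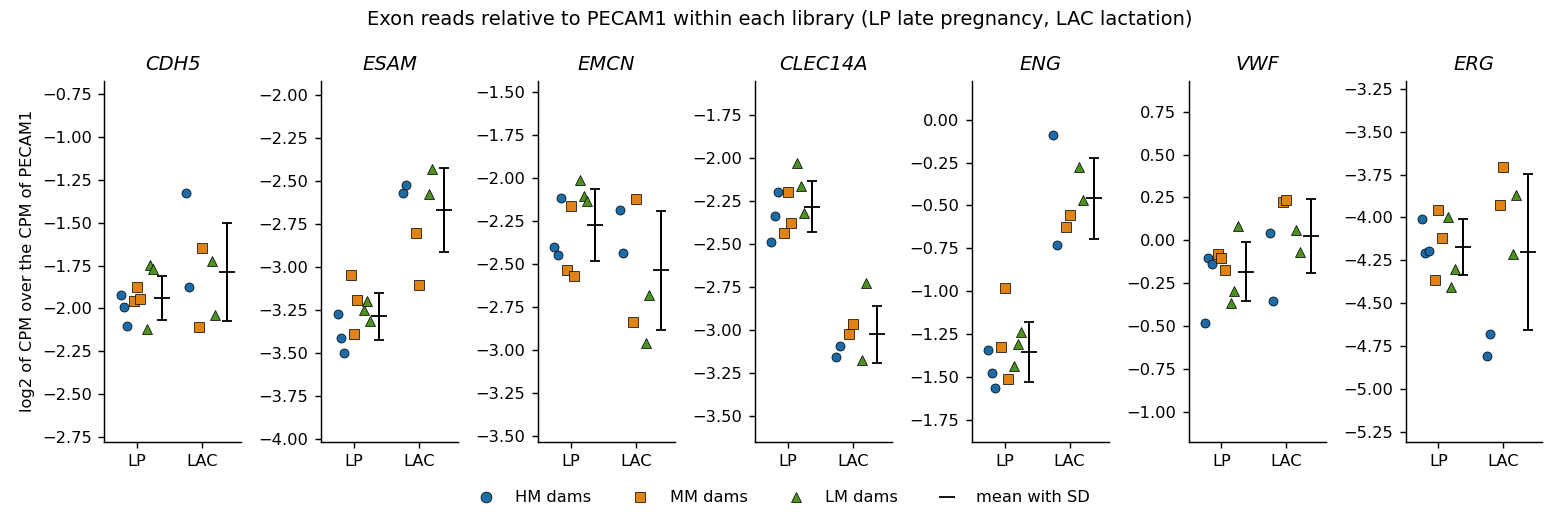
Log2 of the CPM of each gene over the CPM of PECAM1 in the same library (vertical axes of equal width but different position), in late pregnancy (LP) and lactation (LAC). Each point is 1 library, shaped and coloured by dam nutrition, with the mean and SD beside it. CLEC14A is lower and ENG higher relative to PECAM1 in every lactation library than in any late pregnancy library.

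Reads on introns, obtained by subtracting exon reads from all reads on the gene, can come from unspliced RNA and give another readout of the same genes. They were few, from 0 to 43 reads in a lactation library for any gene of the set but ERG. CLEC14A, whose exons cover 1676 of the 1710 bases of its span and leave almost no intron to read, had none in any library. The 7 other genes passed the filter on low counts. Of these 7, PECAM1 and CDH5 were called lower and ENG and ERG higher, against 29.0% of all genes tested on introns in each direction.

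PECAM1 had 44 to 110 intron reads in late pregnancy libraries and 13 to 36 in lactation libraries, with a log2 change of -0.33 (SE 0.13, adjusted p = 0.0348). This call was lost without HM lactation 1 (log2 change -0.29, adjusted p = 0.0747). CDH5 had 7 to 34 intron reads per library in late pregnancy but 0 to 7 in lactation, and its log2 change was -1.14 (SE 0.356, adjusted p = 0.00859; -0.96 without HM lactation 1). ENG, not called on exons, was called higher on introns, with 17 to 47 reads before birth, 8 to 37 after it and a log2 change of 0.72 (SE 0.189, adjusted p = 0.00215; 0.79 without HM lactation 1). Intron levels of VWF (log2 change -0.33, adjusted p = 0.0776), EMCN (-0.23, adjusted p = 0.467) and ESAM (-0.25, adjusted p = 0.418) did not pass the test, and did not without HM lactation 1 either.

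ERG changed in opposite directions on exons and introns. Its intron level was 40.5 to 63.5 CPM of intron reads (median 45.5) in late pregnancy libraries, against 51.2 to 77.8 (median 65.7) in those of lactation, from 67 to 210 and 40 to 92 reads. The log2 change was 0.46 (SE 0.115, adjusted p = 0.00142), and 0.46 without HM lactation 1 (adjusted p = 0.00285), but -0.14 with unscaled intron library sizes. Exon reads lower and intron reads higher, both called, were found for 137 of the 9801 genes tested on both, or 1.4%. Introns took 52.2 to 62.8% of the reads on ERG in late pregnancy and 65.2 to 85.1% in lactation, and these shares, which need no scaling, did not overlap. PECAM1 had a higher intron share in lactation as well, 5.71 to 7.66% against 4.33 to 5.62%, without overlap. Among 10293 genes tested on introns and with reads in every library, 5.99% had a higher intron share in lactation without overlap. For the other 5 genes with intron reads the shares of the states overlapped. HM lactation 1 had the highest intron share of ERG but not of PECAM1, and without it the lactation shares of ERG ran up to 81.4%. No other feature of the deposited table overlapped the span of any of the 8 genes, and whether the intron reads of ERG come from its own transcript was not tested.

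**Figure D3:**
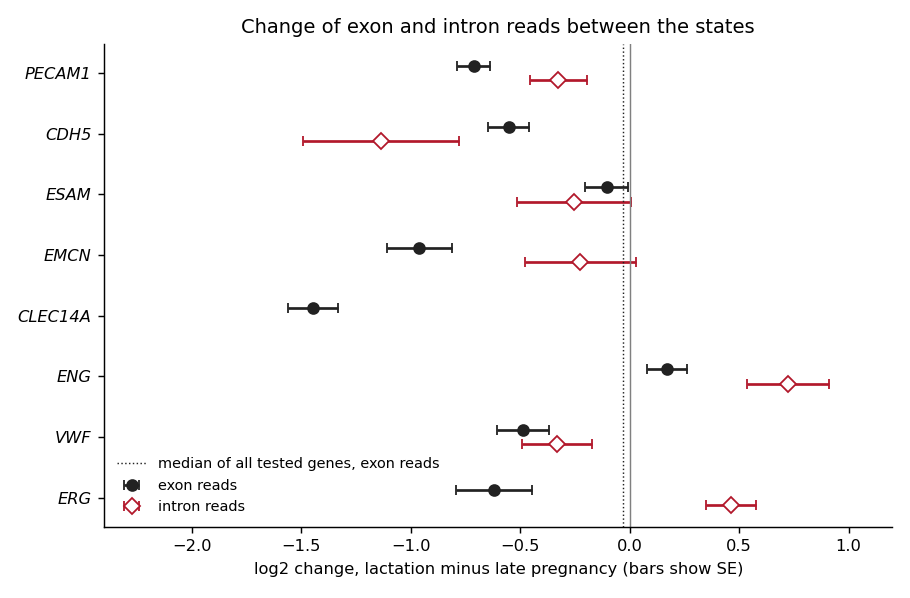
Log2 change between lactation and late pregnancy (horizontal axis) in exon reads (filled circles) and intron reads (open diamonds) of the 8 genes, with standard errors. CLEC14A, which had no intron reads, has a circle only. The dotted line is the median exon change of all tested genes, -0.03. Both readouts lie to the left of 0 for PECAM1, CDH5, ESAM, EMCN and VWF, both to the right for ENG, and ERG has one on each side.

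**Figure D4:**
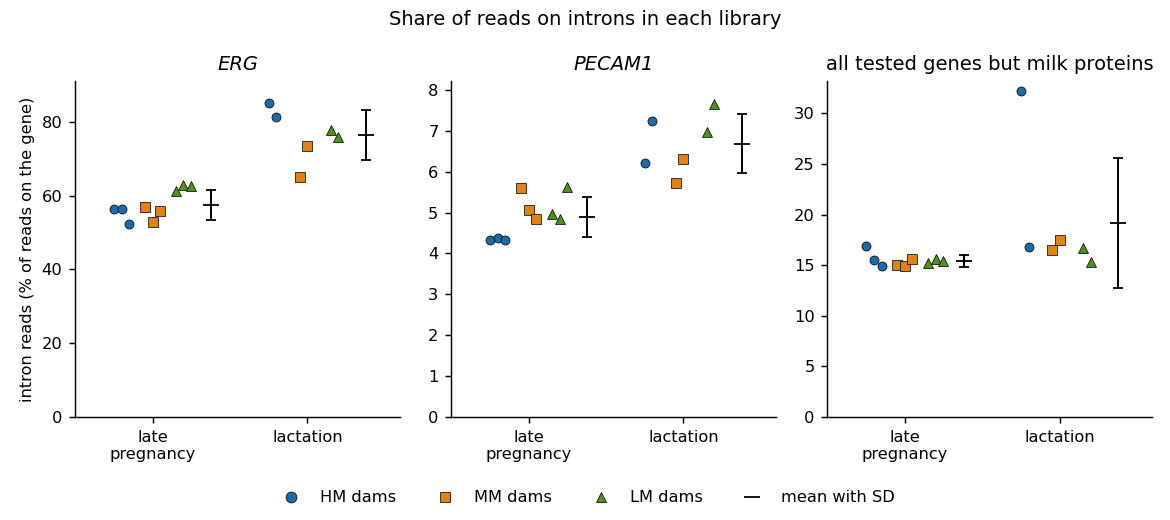
Intron reads as a percentage of the reads on ERG, on PECAM1 and on all tested genes other than milk protein genes (vertical axes from 0, each with its own scale). Each point is 1 library, with the mean and SD of each state beside the points. The lactation libraries lie above those of late pregnancy for ERG and PECAM1, and HM lactation 1 stands at 32.2% in the right panel.

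Other endothelial genes were taken from lists that are given in full or in counts. Without HM lactation 1, 4 genes on these lists lost their call (F8, RGCC, FBLN5 and the luminal epithelial gene KRT18, with adjusted p from 0.0743 to 0.0953) and the lymphatic gene FLT4 was called lower (adjusted p = 0.035). Among transcription factors of endothelial cells, 6 of 11 listed could be tested, of which 3 were called lower and 1 higher. Over all tested genes the shares were 35.2% lower and 33.1% higher. FLI1, an ETS factor close to ERG, fell from 9.15 to 10.9 CPM in late pregnancy to 4.37 to 6.96 CPM in lactation (log2 change -0.74, adjusted p = 6.69e-07). ETS1, another factor of this family and also active in lymphocytes, changed by -0.76 (adjusted p = 8.28e-07) and HHEX by -0.63 (adjusted p = 0.00605). The row that carries the gene identifier of KLF2, a factor induced by flowing blood, rose from a median of 0.759 to 1.56 CPM (log2 change 1.08, adjusted p = 0.000401), with overlap. TAL1 (-0.44, adjusted p = 0.161) and SOX17 (-0.98, adjusted p = 0.0692), both near or below 1 CPM, did not pass.

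Of 17 tested surface and secreted genes of endothelial cells outside the set, 14 were called lower and 1 higher, with a median log2 change of -0.62. The shares of all tested genes were 35.2% and 33.1%. The largest falls were those of PALMD (log2 change -1.42, adjusted p = 1.3e-08) and CD34 (-1.01, adjusted p = 2.14e-08), the latter a sialomucin of vessel and progenitor cells. THBD, or thrombomodulin, which turns thrombin towards anticoagulation, was the one gene called higher: it measured 6.48 to 10.5 CPM in late pregnancy and 56.6 to 133.6 CPM in lactation (log2 change 3.25, adjusted p = 9.98e-13). Which cells of the biopsy carry THBD was not tested.

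Of 18 tested ligands and partners of the set 7 were called lower and 6 higher, against 35.2% and 33.1% of all tested genes, with a median log2 change of 0.02. Among the ligands of TEK, ANGPT1, the agonist angiopoietin that steadies vessels, rose from 5.94 to 8.57 CPM in late pregnancy to 49.1 to 75.9 CPM in lactation, without overlap (log2 change 3.15, SE 0.1, adjusted p = 1.14e-15). ANGPT4 rose from a median of 0.731 to 1.55 CPM (log2 change 1.18, adjusted p = 0.000199). ANGPT2, the context-dependent antagonist that endothelial cells release, ran from 4.97 to 9.95 and from 4.61 to 12.5 CPM, a log2 change of 0.09 that did not pass (adjusted p = 0.728). PTPRB, the phosphatase that dampens TEK, was not called either (log2 change -0.22, adjusted p = 0.107).

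Around endoglin, the BMP9 receptor ACVRL1 was called lower (log2 change -0.37, adjusted p = 0.00482), as were the signal transducers SMAD1 (-0.35, adjusted p = 0.00516) and SMAD5 (-0.39, adjusted p = 0.018) and the co-receptor TGFBR3 (-0.26, adjusted p = 0.0496). The receptor TGFBR2 was called higher (0.36, adjusted p = 3.86e-05), and BMPR2 (0.31, adjusted p = 0.0775) was not called. Of the ligands, BMP10 had 0 reads in every library. GDF2, which encodes BMP9, measured at most 1.37 CPM in late pregnancy and had 0 reads in every lactation library, too few to be tested.

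The catenins that bind VE-cadherin also serve the cadherins of epithelium. JUP (plakoglobin) fell by 1.50 on the log2 scale (adjusted p = 4.98e-12), while CTNNB1 (0.23, adjusted p = 0.000339) and CTNND1 (0.25, adjusted p = 0.000653) rose. Of the genes that serve von Willebrand factor, STXBP5, which restrains its release, fell by 1.23 (adjusted p = 4.04e-07) and RAB27A, found on Weibel-Palade bodies, fell by 0.45 (adjusted p = 0.00303). F8, the coagulation factor that circulates bound to it, rose by 0.18 (adjusted p = 0.0478).

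Genes listed for particular vessel segments differed among themselves, and which cells of the biopsy carry them was not tested. Of all tested genes 35.2% were called lower and 33.1% higher. The list of capillaries and fat uptake and the lymphatic list did not exceed these shares in either direction. All 4 tested genes of the venous list were called lower, EPHB4 (log2 change -1.42, adjusted p = 1.45e-08) and APLNR (-1.31, adjusted p = 0.00123) the most. Of 8 arterial genes 4 were called lower and 1 higher, and the gene called higher, EFNB2, the ligand of EPHB4, rose from 1.01 to 2.12 CPM to 10.8 to 27.6 CPM (log2 change 3.73, adjusted p = 5.87e-13). Of 8 genes of capillaries and fat uptake 2 were called lower, RGCC (-0.43, adjusted p = 0.0403) and MEOX2 (-0.40, adjusted p = 0.0175). The 2 called higher were LPL (6.69, adjusted p = 4.2e-16), the lipoprotein lipase that secretory epithelium makes in lactation, and CA4 (1.99, adjusted p = 9.86e-06). Of 7 lymphatic genes CCL21 (-1.05, adjusted p = 0.00112) and PDPN (-0.92, adjusted p = 8.56e-07) were called lower, and PROX1 (1.42, adjusted p = 1.25e-08) and RELN (1.62, adjusted p = 3.85e-06) higher.

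**Figure D5:**
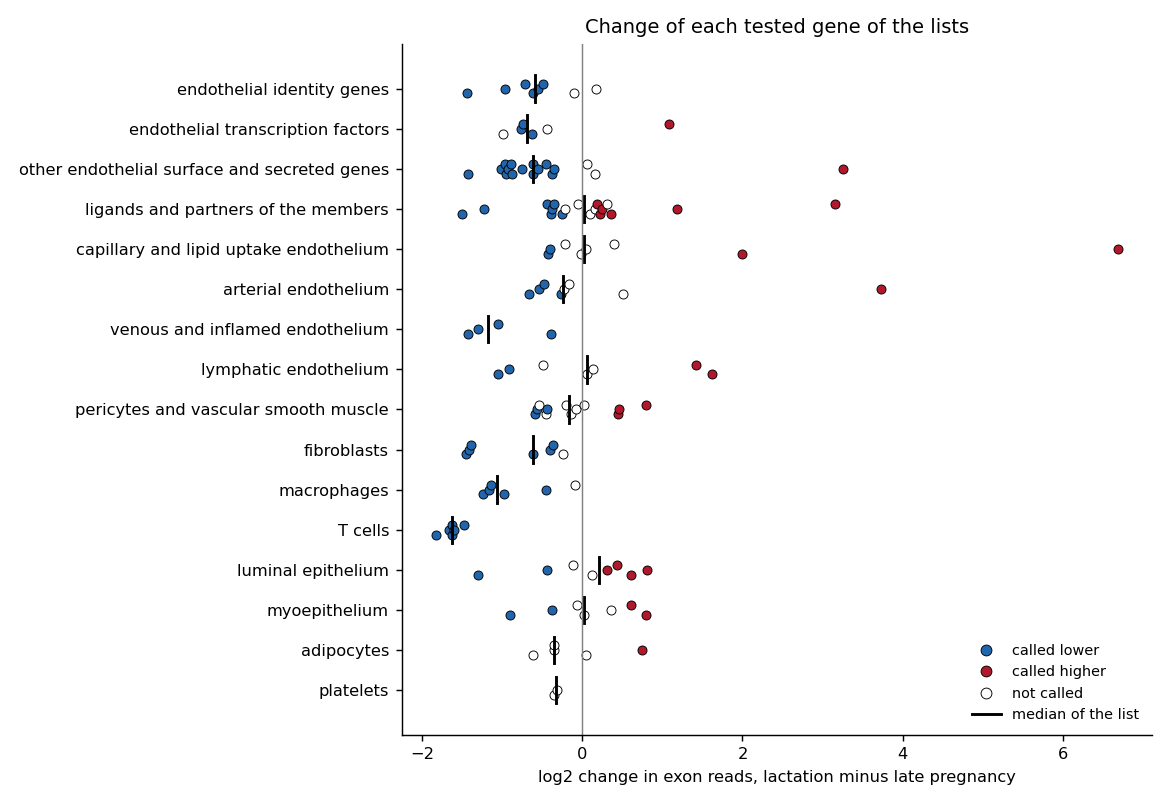
Log2 change in exon reads between lactation and late pregnancy (horizontal axis) of each tested gene in the endothelial identity set and in lists of vascular and other cell types. Blue points were called lower, red points higher and white points not called, and the black bar is the median of the list. Most points of the first 3 lists lie left of 0, and the far right points are LPL, EFNB2, THBD and ANGPT1.

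Marker lists of other cells differed in the direction of their calls. For scale, 35.2% of all tested genes were called lower and 33.1% higher. The lists of pericytes and vascular smooth muscle and of myoepithelium did not exceed these shares in either direction. Of the mural cell genes, which mark pericytes and vascular smooth muscle, 3 of 12 were called lower, with the largest falls in NOTCH3 (log2 change -0.59, adjusted p = 0.0201) and CSPG4 (-0.57, adjusted p = 0.00144). Another 3 were called higher, with the largest rises in CNN1 (0.80, adjusted p = 6.29e-06) and MYH11 (0.45, adjusted p = 0.000197), which myoepithelial cells also express. Fibroblast genes were called lower in 6 of 7 cases and summed to 1370 to 2167 CPM in late pregnancy and 662.1 to 1056 CPM in lactation. Macrophage genes were called lower in 5 of 6 cases (154.6 to 202.9 against 72.6 to 102.6 CPM) and T cell genes in 6 of 6 (42.0 to 66.2 against 13.6 to 20.5 CPM), and leukocytes carry PECAM1 too. Luminal epithelial genes were called lower in 2 and higher in 4 of 8 cases (1540 to 1899 against 2360 to 2616 CPM), myoepithelial genes in 2 and 2 of 7 (558.4 to 602.7 against 460.3 to 669.3 CPM) and adipocyte genes in 0 and 1 of 5 (225.9 to 431.3 against 311.1 to 399.7 CPM). Most of the adipocyte sum was FABP4 (208.9 to 421.4 against 285.5 to 383.3 CPM), a gene also on the list of capillaries and fat uptake. The part of these other cell types in the levels of the endothelial identity genes was not tested.

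Within a state the genes of the set varied together only in part. Over the 15 libraries, after the mean of each state was taken off, the 28 pairs of genes had a median Pearson correlation of 0.303, from -0.319 (ESAM with ERG) to 0.665 (PECAM1 with VWF), and 7 pairs lay above 0.5. These are descriptions over libraries that also share depth and scaling. The gene outside the set whose level followed the mean of the 8 genes most closely was ROBO4, a guidance receptor of endothelial cells (correlation 0.87). The correlations of all 12256 genes compared ran from -0.87 to 0.87, with a median of 0.01. Next came NDUFS3 (0.82), ABLIM3 (0.81), GGH (0.80), PGM5 (0.79), EIF2B5 (0.79), PITRM1 (0.79), EGLN3 (0.78), TMCC3 (0.78) and ACAA2 (0.78). ROBO4 was the only one of these 10 on any of the vascular lists.

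Dam nutrition was compared over the 9 late pregnancy libraries, with 3 pools in each group. None of the 8 genes was called by the edgeR test for 3 groups, and neither was any of the 13747 genes tested (0.0%), of which 571 (4.15%) had an unadjusted p under 0.05. The smallest unadjusted p in the set was that of PECAM1 (0.0462, adjusted p = 1.0), at 84.0 ± 6.64 CPM in HM, 73.6 ± 5.32 in MM and 70.7 ± 5.04 in LM (SD, n = 3). DESeq2 called 20 genes in this comparison, none of them among the 8. The pools of each group were too few to show that the levels were alike.

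The change between states was also compared between the dam nutrition groups. None of the 13345 genes was called for this interaction by edgeR (0.0%), 876 (6.56%) had an unadjusted p under 0.05, and DESeq2 called 21, none of them among the 8. ERG had the smallest unadjusted p of the set (0.0204, adjusted p = 0.735). In late pregnancy ERG averaged 4.77 CPM in HM, 4.18 in MM and 3.81 in LM, and in lactation 1.74 CPM in HM, 3.55 in MM and 2.55 in LM, from 2 pools each. EMCN had an unadjusted p of 0.0448 (adjusted p = 0.742), with lactation means of 9.29 CPM in HM, 9.19 in MM and 5.96 in LM. Neither difference passed the correction.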

How the data were processed

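RNA of mammary biopsies was pooled, prepared with the TruSeq RNA kit (version 2, which does not mark strand) and sequenced as paired reads on an Illumina Hi-Seq, and the authors mapped the reads in CLC Genomics Workbench. The labels name the assembly Oar_v3.1 and the methods genome version 3.2. The deposited counts are the authors' numbers of reads on the exons, on exon junctions and on the whole of each gene, not normalized. The deposited RPKM values are the authors' exon reads per kilobase and scaled to the total of reads on genes, and recomputing them from the counts differed by at most 3.5e-07 of their size. The authors also deposited a normalized signal, their RPKM after quantile normalization, whose sorted values were the same in every library. The table also holds the authors' own fold changes and p-values, which were not used.

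Libraries were grouped by the labels that name the state, the dam nutrition and the pool. The states were compared with edgeR 4.0.16 (R 4.3.3) on exon reads, and on whole-gene reads for the 5583 features that have no annotated transcript. The fit used filterByExpr by state, TMM scaling and the quasi-likelihood F-test, with no covariates. Benjamini-Hochberg adjustment covered all tested genes, and log2 changes are lactation minus late pregnancy. Intron reads, the whole-gene reads less exon reads, were filtered, scaled and tested in the same way. The test of dam nutrition used the late pregnancy libraries, and that of its interaction with the state used all 15. Counts were also simulated with 200 changed genes, the same dispersion for every gene and no shift in the share of milk protein reads. Of the genes changed 2-fold there, 96.8% were recovered for exon reads, 94.9% for intron reads and 83% for dam nutrition. The data differ from these settings, so the rates check the code and do not give the power of the comparisons. Alternatives used other scalings, filters and covariates, DESeq2 1.42.0, limma 3.58.1 on log2 of the deposited normalized values plus 1 or plus 0.1, and each library left out in turn. Lists and overlaps without HM lactation 1 were added after the data were seen. Precision is given by the spread between libraries, since reads were counted without molecular identifiers. Every exon read on the 8 genes was uniquely placed (100.0%). Genes are compared by symbol, and those found only by gene identifier or synonym are said to be so or counted within a list.

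The set of genes and the lists beside it were chosen with earlier results of these data known. All genes of the set are named. Of each other list up to 2 of the largest falls and 2 of the largest rises are named, if called and at or above a mean of 1 CPM in either state. Transcription factors, ligands and partners could all be named. Outside this rule, platelet genes were named for their levels and FABP4 as most of the adipocyte sum. Genes whose call changed without HM lactation 1 were named as well. The genes named as most alike are the 10 with the highest correlation of log2(CPM + 1), after state means were taken off, with the mean z-score of the set, at or above a mean of 1 CPM. Pool numbers within a dam nutrition group were checked for pairing. Deviations of same-numbered libraries from their group means correlated at -0.02 to 0.07 over 6 pairs, and those of other-numbered libraries at -0.08 to 0.08 over 12. With 2 lactation pools in a group the deviations of one mirror those of the other. The check therefore cannot decide whether the numbers pair the libraries. Python 3.11.15 did the remaining work.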

Additional observations from a re-analysis of the deposited data

How the results depend on the processing

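The count of 6 endothelial identity genes called lower held at 6 with each library left out in turn (6 to 6) and ranged from 5 to 8 over the 14 other alternatives. It was 5 with at least 10 reads required in every library, which drops ERG, and with all reads on the gene, and 8 with unscaled library sizes. The count called higher was 0 to 1 with libraries left out, the 1 being ENG without MM late pregnancy 2, and 0 otherwise. Reversed signs were those of ENG with unscaled library sizes (-1.73) and with library sizes without milk protein genes (-0.039), of ERG with all reads on the gene (0.14), where its intron reads enter, and of the intron reads of ERG with unscaled library sizes (-0.14). The 2 genes called lower on introns became 5 with unscaled library sizes, 1 with the scaling of the exon reads, 1 with DESeq2 and 1 to 3 with libraries left out, and the 2 called higher became 0 with unscaled library sizes and were 2 to 2 with libraries left out. The intron call of PECAM1 was lost without LM late pregnancy 3, MM late pregnancy 1, HM lactation 1, LM lactation 1, MM lactation 1 or MM lactation 2 (adjusted p up to 0.0747). The cause of these shifts in the intron counts was not tested. VWF was called lower on introns without MM late pregnancy 3 (adjusted p = 0.0327) or MM lactation 1 (0.0359). Scaling also set the split of all calls: 51.6% of them were lower, against 63.7% with upper quartile scaling, 68.1% without milk protein genes and 97.3% with unscaled sizes (12705 genes lower, against 4703), and ESAM was called lower under these (log2 changes -0.25, -0.31 and -2.01). Relative to the median of all genes, ESAM stayed at -0.07 and CLEC14A at -1.41 under each of them. With pool number and dam nutrition as a replicate block, the 6 calls on exons were kept in number, 8464 genes were called in place of 9122, and on introns PECAM1 lost its call (adjusted p = 0.0545) and VWF gained one (0.0408), leaving 2 lower. Dam nutrition and its interaction called 0 of the 8 genes in every alternative run (0 to 0 with libraries left out). Over all genes the interaction called 2 without the low-count filter, 10 without HM lactation 2 and 2 without LM lactation 2, and dam nutrition called 1 without LM late pregnancy 1, against 0 in the reported fits.

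Depth limits the lactation values most, where ERG rests on 7 to 39 exon reads and CDH5 on 0 to 7 intron reads.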
